A study of Homo sapiens with 42 samples.

Results

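Of 194142 transcripts in the deposited expression table, 4633 carry the nonsense-mediated decay (NMD) biotype of GENCODE release 29 and had a mean of at least 0.5 TPM (transcript abundance relative to transcript length and to all transcripts of the library) over the 12 libraries of the human monocytic leukaemia line THP-1. These 4633 transcripts, called NMD-biotype transcripts here, come from 3014 genes, all protein-coding. The mean that chose them includes the 6 libraries treated with cycloheximide (CHX), so their response to CHX is not independent of how they were chosen, and it is set beside NMD-biotype transcripts chosen on other libraries. The 2 transcripts just outside the threshold were MON2-205 (mean 0.499819 TPM) and RHOT1-209 (0.499875 TPM), and the 2 just inside were SNW1-206 (0.500179 TPM) and HIST1H4H-203 (0.500464 TPM). Polyadenylated RNA was sequenced from 42 libraries in 14 groups of 3, in a study of inhibition of RNA polymerase III (Pol III), the enzyme that makes tRNAs and other short noncoding RNAs. THP-1 cells received the vehicle DMSO, the translation inhibitor CHX (10 ug/ml, 4.5 h), ML-60218, which inhibits Pol III (25 uM, 4 h), or CHX and ML-60218 together. HEK293T cells, a human embryonic kidney line, were transfected for 48 h with an antisense oligonucleotide (ASO) against the Pol III subunit gene POLR3G or a scrambled ASO (200 nM), with a POLR3G siRNA or a control siRNA (200 nM), or with 1 of 3 siRNAs against its paralog POLR3GL (siE4, siE6, siE8) or a control siRNA (25 nM). A further pair of HEK293T groups overexpressed MAF1, a repressor of Pol III, or eGFP for 48 h.

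NMD is a quality-control pathway that degrades mRNAs on which a ribosome terminates at a stop codon lying well upstream of an exon junction. The exon junction complex left behind by splicing, the helicase UPF1 with UPF2 and UPF3B, and the kinase SMG1 with its partners mark such mRNAs, and SMG5 and SMG6 help bring about their decay. The pathway needs translation, so a translation inhibitor such as CHX is widely used to stabilise its targets, and many splicing factors control their own amounts by splicing in a "poison" exon that sends the mRNA to NMD.

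The annotated ends of the reading frames of the transcripts on which the results turn most are given first. The biotype rests on where the stop codon lies relative to the exon junctions downstream of it. Each line gives 30 bases, 5′ to 3′, from the GENCODE 29 transcript sequence (GRCh38), with the coding bases in lower case and the stop codon in capitals.
SRSF3-203: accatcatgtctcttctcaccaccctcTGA
CLK1-204: tcacatgggatgaaattgttgatacttTAG
SRSF2-208: cctgaagaggaaggagcggtgtcctctTAA
HNRNPDL-202: aatcaccaaaacaattaccagccatacTAA
EIF4A2-202: cgtgaaaactatattcacaggagtcgaTAG
MAGOHB-208: cctgatagggttggccgacagaataaaTGA
DNAJC7-207: gattgttccagccctagactatctttaTAG
BTBD1-204: cttactcagatacactctgtgcagtttTAG
PTPN23-206: gatcttctcaggcaagtctgtggcccaTGA
HNRNPA1-205: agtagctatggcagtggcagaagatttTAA
SOD2-214: gttcaatggtggtggtcatatcaatcaTAG
U2SURP-203: tattattgtcatgaacactggacatacTAG
The stop codon of SRSF3-203 lies in a 456-base exon (chr6:36599821-36600276, plus strand) that overlaps no exon of a protein-coding transcript of SRSF3, as do those of EIF4A2-202 (chr3:186788310-186788416), MAGOHB-208 (chr12:10609098-10609383), DNAJC7-207 (chr17:41987595-41987694) and U2SURP-203 (chr3:143024484-143024548) in their own genes. SRSF2-208 (chr17:76736154-76736464), HNRNPDL-202 (chr4:82426037-82426129) and HNRNPA1-205 (chr12:54284258-54284317) end at a stop codon that protein-coding transcripts of the gene also use, and are spliced downstream of it. The stop codons of CLK1-204 (chr2:200859680-200859746), BTBD1-204 (chr15:83041728-83041925), PTPN23-206 (chr3:47405005-47405081) and SOD2-214 (chr6:159688126-159688242) lie in exons that overlap exons of protein-coding transcripts of the gene, at a position where none of those transcripts stops.

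Libraries held 32705684 to 52568088 estimated reads. All 10 monocytic markers listed for THP-1 and all 4 markers listed for HEK293T were higher in the line they mark, with no overlap between libraries. Summed over its transcripts, POLR3G was 7.40 to 9.58 TPM with the ASO against 13.3 to 17.3 TPM with the scrambled ASO, and 11.9 to 13.7 TPM with its siRNA against 19.0 to 24.5 TPM. POLR3GL was 2.30 to 3.60 TPM with siE4, siE6 or siE8 against 33.5 to 38.2 TPM, and MAF1 was 3643 to 4078 TPM when overexpressed against 41.4 to 43.9 TPM. The labels do not say whether replicates came from separate cultures, so the p-values speak of library-to-library spread alone, which may be technical. In bulk RNA, fewer cells of a kind and less RNA per cell cannot be told apart. Where isoforms are nearly identical, the read assignment by Salmon is an estimate, and a transcript at 0 in every library of a group can be one whose reads were assigned elsewhere.

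The NMD-biotype transcripts were mostly rare isoforms with a stop codon far from the last exon junction. Their median mean level was 1.68 TPM (0.5002 to 678 TPM), and the median share of the gene's TPM that a transcript took was 4.29% in DMSO, while 197 of them took more than 50% of their gene. Of the 4625 with an annotated stop codon, 4585 had it more than 50 bases upstream of the last exon junction, the distance usually quoted for NMD, and the median distance was 323 bases (interquartile range 160 to 675). The median transcript was 1112 bases long with 7 exons, 3 of them after the exon of the stop codon, and a coding stretch of 297 bases. The stop codon was TGA in 57.0%, TAA in 23.3% and TAG in 19.7%. In 1168 transcripts (25.2%) it lay in an exon of its own, with a median length of 122 bases. In 504 (10.9%) it was a stop codon that a protein-coding transcript of the gene also uses, and 2953 (63.7%) belonged to neither class. The annotation marks 1124 as having an incomplete coding start. Of the 3014 genes, 2007 had 1 such transcript and 1007 had 2 or more, up to 11.

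The pool of these transcripts was larger with CHX. Their summed level was 19495, 19854 and 19272 TPM in DMSO, 19415, 19743 and 19598 TPM with ML-60218, 29127, 28895 and 29335 TPM with CHX, and 28721, 28655 and 29208 TPM with both agents. Every library with CHX was above every library without it, by 1.49-fold on average in the absence and 1.47-fold in the presence of ML-60218, and the groups without and with ML-60218 overlapped. Together the transcripts made up 1.93% to 1.99% of all TPM without CHX and 2.87% to 2.93% with it, and the median share of the gene went from between 4.01% and 4.32% to between 5.97% and 6.14%. Between 285 and 367 of them were at 0 TPM in a library without CHX, against 133 to 174 with it. The ratio was 1.44 for the 3706 transcripts that would have passed the threshold on the DMSO libraries alone, and 1.61 without the 10 most abundant. Summed protein-coding transcripts were 0.979 times, retained-intron transcripts 0.907 times and processed transcripts 1.22 times their DMSO level. Transcripts of the mitochondrial genome took 16.7% to 18.1% of TPM in DMSO and 11.2% to 12.7% with CHX, and the part of this difference in TPM ratios was not tested.

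**Figure D1:**
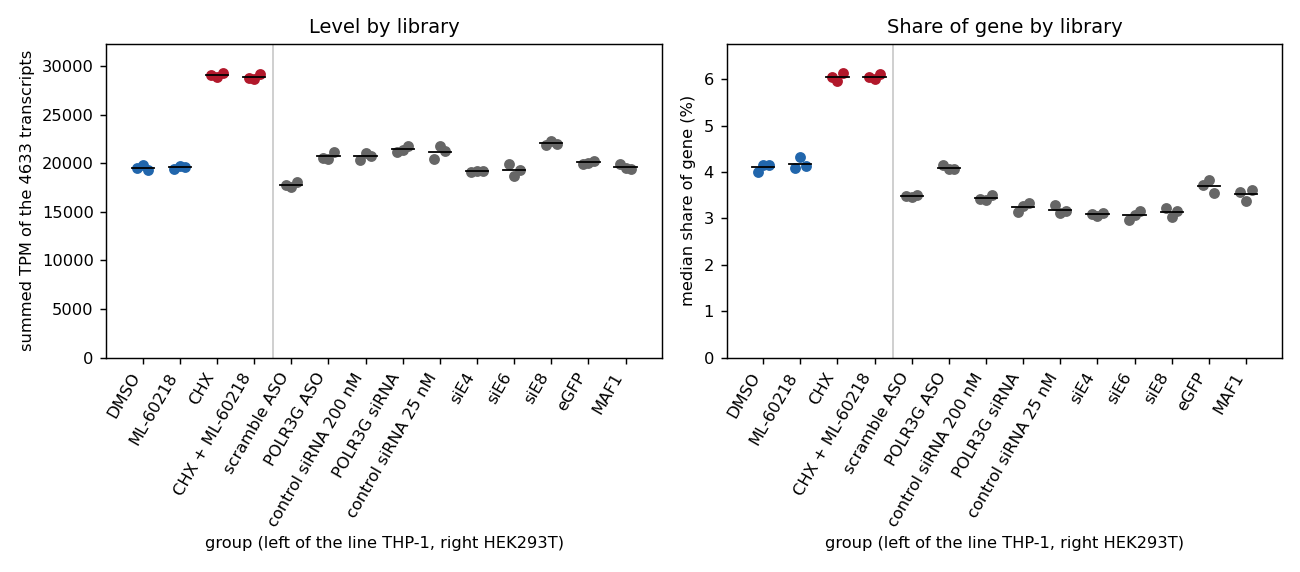
Summed TPM of the 4633 NMD-biotype transcripts (left) and their median share of the gene's TPM in percent (right) in each of 42 libraries, by group, with a bar at the group mean and the groups treated with CHX in red. The 6 libraries with CHX lie between 28655 and 29335 TPM and above all others, which lie between 17535 and 22296 TPM.

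Transcript by transcript, a call below means an adjusted p under 0.05 in edgeR's quasi-likelihood test over all transcripts of the experiment, and a log2 fold change (± SE) is the edgeR estimate after scaling between libraries, which differs from a plain ratio of TPM values. A fold change of a whole gene is likewise from counts summed over its transcripts, and its direction can differ from that of the gene's summed TPM, which is given where it does for a gene described below. With CHX against DMSO, 1190 of the 4473 NMD-biotype transcripts tested rose (26.6%) and 237 fell (5.30%), while 160 were too low to test. Of all 74423 transcripts tested, 13.6% rose and 12.2% fell (25.8% called in all). The median log2 fold change of the NMD-biotype transcripts was 0.53 (interquartile range −0.12 to 1.41), against 0.00 for all transcripts, and 70.9% of them were above 0. More than 2-fold rises numbered 903 and more than 2-fold falls 98, while the percentages of all transcripts above hold for calls of any size. The 847 tested transcripts whose DMSO mean was under 0.5 TPM could enter only through other groups, and 264 of them rose, with a median of 1.94. Among the 3626 with a DMSO mean of 0.5 TPM or more, 926 rose and 237 fell, with a median of 0.32.

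The same direction was seen when no THP-1 value chose the transcripts. Of the 3725 tested NMD-biotype transcripts with a mean of at least 0.5 TPM over the 12 HEK293T control libraries, 895 rose and 222 fell with CHX, with a median log2 fold change of 0.38. Chosen in the same way, 5422 of 26108 protein-coding transcripts rose and 4028 fell (median 0.04), 546 of 4670 processed transcripts rose and 493 fell (median 0.00), and 312 of 9356 retained-intron transcripts rose and 2372 fell (median −0.49). Retained-intron transcripts, which carry unspliced sequence, thus moved on balance the opposite way from NMD-biotype transcripts. Under every scaling tried the median of NMD-biotype transcripts stayed above that of all transcripts, at 0.74 against 0.20 with limma on log2(TPM + 0.1), where the scale is shifted, and at 0.52 to 0.55 against 0.00 to 0.01 in the count fits.

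**Figure D2:**
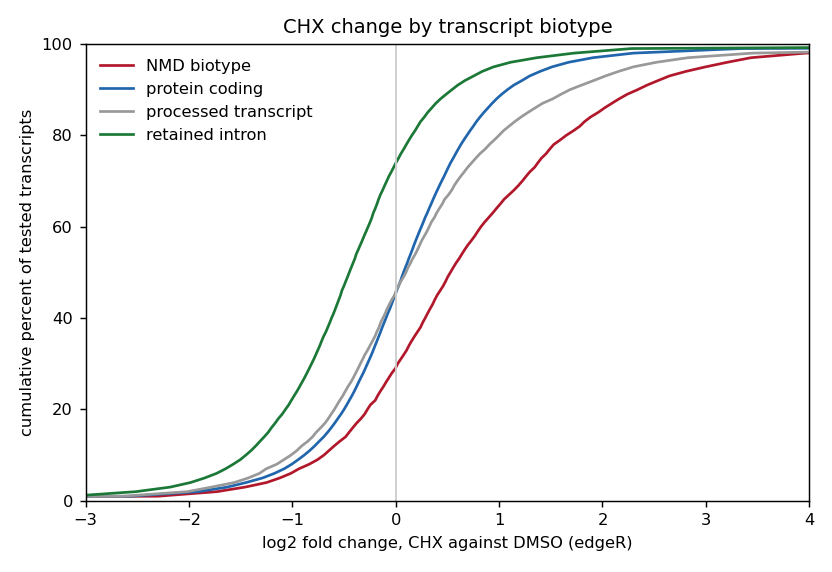
Cumulative percent of tested transcripts (y axis) at or below a log2 fold change of CHX against DMSO (x axis, log2 scale, −3 to 4) for NMD-biotype, protein-coding, processed and retained-intron transcripts with a mean of at least 0.5 TPM in THP-1. The NMD-biotype curve lies to the right with a median of 0.53, the retained-intron curve to the left with a median of −0.45, and the protein-coding and processed curves cross 50% at 0.08 and 0.10.

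The share of a transcript in its gene was tested with edgeR's diffSpliceDGE, which compares a transcript with the other transcripts of its gene. Of 4396 NMD-biotype transcripts tested, the share of 207 rose and that of 20 fell with CHX, against 1.23% higher and 0.791% lower (2.02% called) among all 57151 transcripts tested. Limma on TPM called 947 shares (792 higher and 155 lower) in place of 227. The median log2 change of the share was 0.37. For 172 transcripts both the level and the share rose, and for 11 both fell. Host genes often rose too: of the 1190 transcripts that rose, 854 had a host gene that rose, 181 one that fell and 155 one that was not called, with a median log2 fold change of 0.35 for the gene and 1.57 for the transcript. Of the 237 that fell, 189 had a host gene that fell, 24 one that rose and 24 one that was not called. Over all 15327 genes tested, 33.5% rose and 32.5% fell.

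Genes encoding SR proteins, hnRNPs and other splicing factors held several transcripts that rose in both level and share. SRSF3-203, of an SR protein, was at 38.1, 42.6 and 40.7 TPM in DMSO, 272, 278 and 273 TPM with CHX, 44.0, 42.9 and 37.5 TPM with ML-60218 and 282, 273 and 294 TPM with both. The 6 CHX libraries were all far above the other 6, whether or not ML-60218 was present. Against DMSO it rose by 2.51 ± 0.06 on the log2 scale (adjusted p = 6.21e-09), its share of the gene went from 6.13 ± 0.483% to 27.7 ± 0.741% (SD, n = 3; the share rose, adjusted p = 8.57e-24), and the gene as a whole rose by 0.33. CLK1-204, of a kinase that phosphorylates SR proteins, was at 10.3, 11.1 and 10.6 TPM in DMSO and 42.8, 45.3 and 42.0 TPM with CHX. It rose by 1.81 ± 0.07 (adjusted p = 9.88e-08), its share rose from 13.6 ± 1.41% to 34.2 ± 1.05%, and the gene rose by 0.38. SRSF2-208 was at 3.33, 2.93 and 2.24 TPM in DMSO, 37.9, 38.2 and 42.4 TPM with CHX, and 2.56, 2.44 and 3.73 TPM with ML-60218. It rose by 3.51 ± 0.21 and its share rose from 0.778 ± 0.152% to 10.7 ± 0.536%, while the summed counts of the SRSF2 gene fell by 0.60 and its mean summed TPM was 364 in DMSO and 368 with CHX. SRSF2-204, which ends at the same stop codon and differs downstream of it, rose by 3.44 ± 0.33.

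HNRNPDL-202, of an hnRNP that binds RNA in the nucleus, was at 34.0, 35.7 and 33.4 TPM in DMSO and 102, 112 and 103 TPM with CHX. The groups did not overlap, and the level rose by 1.40 ± 0.05 (adjusted p = 2.84e-08). Its share was 16.3 ± 0.599% in DMSO and 41.9 ± 2.74% with CHX, which did not pass the test of the share (adjusted p = 0.0785). The gene's summed counts fell by 0.18 on the log2 scale, while its mean summed TPM was 211 in DMSO and 253 with CHX. Of the 109 tested NMD-biotype transcripts of the splicing list, 55 rose and 8 fell with CHX (median 0.94, with 24 shares higher and 2 lower), beside 26.6% and 5.30% of all NMD-biotype transcripts. The list was chosen with earlier results of these data known, so its counts describe these libraries.

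**Figure D3:**
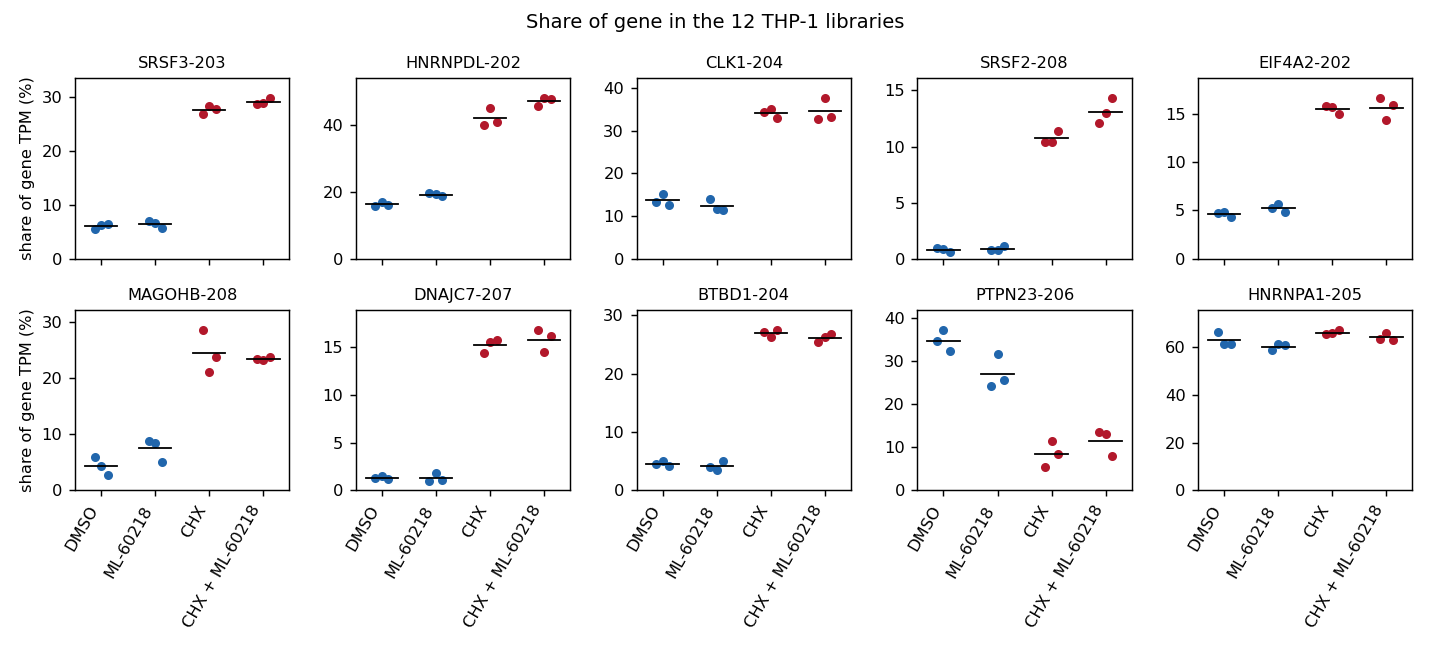
Share of the gene's TPM in percent (y axis) taken by 10 NMD-biotype transcripts in the 12 THP-1 libraries, in the order DMSO, ML-60218, CHX and both agents, 1 point per library. The shares of SRSF3-203, CLK1-204, SRSF2-208, EIF4A2-202, MAGOHB-208, DNAJC7-207 and BTBD1-204 are higher in both groups with CHX, PTPN23-206 goes from 34.7% in DMSO to 8.43% with CHX, and HNRNPA1-205 is at 62.8% in DMSO and 66.0% with CHX.

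Transcripts of NMD factors themselves were few. Of the 10 tested, 3 rose and 0 fell with CHX in edgeR, with 6 at an unadjusted p under 0.05. Among all transcripts tested, 13.6% rose and 12.2% fell, and of all 4473 tested NMD-biotype transcripts 1190 rose and 237 fell. DESeq2 also called 3 higher and 0 lower, and limma on TPM 4 and 0. Those that rose include MAGOHB-208 and MAGOHB-209. MAGOHB-208, of a core protein of the exon junction complex, was at 1.43, 1.12 and 0.633 TPM in DMSO and 8.12, 6.34 and 7.59 TPM with CHX. It rose by 2.57 ± 0.31 (adjusted p = 0.000138), with a share that rose from 4.36 ± 1.62% to 24.4 ± 3.77%. At the level of whole genes, 16 of 28 NMD factors rose and 9 fell with CHX, beside 33.5% higher and 32.5% lower among all genes tested. UPF2 rose by 1.28 ± 0.03 (14.3 to 40.4 TPM), UPF1 by 0.77 ± 0.05 (25.2 to 53.3 TPM) and UPF3B by 0.64 ± 0.03. The summed counts of EIF4A3, the helicase of the exon junction complex, fell by 0.37 on the log2 scale. Its summed TPM was close in the 2 groups, at 86.4 ± 6.29 in DMSO and 84.7 ± 3.65 with CHX (SD, n = 3).

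Among translation factors, 10 of 45 tested NMD-biotype transcripts rose and 6 fell (median 0.37), beside 26.6% and 5.30% of all NMD-biotype transcripts and 13.6% and 12.2% of all transcripts. EIF4A2-202, of a helicase of the cap-binding complex, was at 25.0, 25.7 and 22.7 TPM in DMSO and 62.7, 61.5 and 60.8 TPM with CHX. It rose by 1.10 ± 0.07 (adjusted p = 1.52e-06) and its share rose from 4.63 ± 0.244% to 15.5 ± 0.473%, while the gene fell by 0.75. EIF4A1-218, of its paralog, fell by 1.36 on the log2 scale and the EIF4A1 gene fell by 0.55. EIF3F-205 took 71.5 ± 1.89% of its gene in DMSO and 73.1 ± 1.09% with CHX, and fell by 0.37 in level.

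Genes of the Pol III and tRNA pathways, the subject of the study, held few of the tested NMD-biotype transcripts. Of 22 tested NMD-biotype transcripts of Pol III subunits and factors, 4 rose and 2 fell with CHX, and of 18 of tRNA synthetases 4 rose and 3 fell. Among all transcripts 13.6% rose and 12.2% fell, and of all 4473 tested NMD-biotype transcripts 1190 rose and 237 fell. The counts of these lists are small, and their difference from either was not tested. CRCP-202, of the Pol III subunit RPC9, was at 0.717, 0.782 and 0.501 TPM in DMSO and 2.90, 3.42 and 3.30 TPM with CHX, and rose by 2.02 ± 0.22. SNAPC3-206, of a factor for small nuclear RNA genes, rose by 1.03 ± 0.07 and took 47.6% of its gene in DMSO and 53.9% with CHX. GARS-202, of the glycyl-tRNA synthetase, was at 0.297, 0.276 and 0.251 TPM in DMSO and 1.72, 1.48 and 1.63 TPM with CHX. It rose by 2.31 ± 0.25, and the gene, at −0.01 on summed counts, was not called (mean summed TPM 54.6 and 69.1). XPOT-203, of the exporter of tRNA, rose by 1.45 ± 0.24 while its gene fell by 0.65, and MTHFD2-208, of a folate enzyme, fell by 1.24 with a fall of 1.16 for the gene.

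Ribosomal protein transcripts with the NMD biotype had more falls than rises. Of 38 tested, 0 rose and 12 fell with CHX in edgeR (median −0.36, with 18 at an unadjusted p under 0.05). Among all transcripts tested, 13.6% rose and 12.2% fell, and of all 4473 tested NMD-biotype transcripts 1190 rose and 237 fell. DESeq2 called 3 higher and 13 lower, limma on TPM 3 higher and 10 lower, and the median was below 0 under every setting tried. RPL13-210 was at 85.3, 88.5 and 85.3 TPM in DMSO and 63.0, 64.5 and 61.6 TPM with CHX. It fell by 0.71 on the log2 scale, close to the fall of its gene of 0.65, and its share was 3.64 ± 0.131% and 3.23 ± 0.0599%. RPL35A-202 fell by 0.74 and RPS3-218 by 0.54, with shares of 8.32% and 15.1% in DMSO and 7.02% and 14.6% with CHX.

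The largest rises among transcripts of at least 0.5 TPM in every DMSO library, chosen after their values were seen, spread over many functions. DNAJC7-207, of a co-chaperone, was at 1.13, 1.34 and 1.09 TPM in DMSO, 19.8, 21.3 and 21.9 TPM with CHX, 0.923, 1.56 and 0.961 TPM with ML-60218 and 22.6, 19.2 and 21.4 TPM with both. The groups with and without CHX were far apart, and the level rose by 3.93 ± 0.19 (adjusted p = 3.21e-07) with a share that rose from 1.34 ± 0.13% to 15.2 ± 0.749%. BTBD1-204, of a BTB-domain protein, was at 2.11, 2.46 and 1.86 TPM in DMSO and 33.7, 33.2 and 35.0 TPM with CHX. It rose by 3.79 ± 0.15 and its share rose from 4.61 ± 0.439% to 27.0 ± 0.543%, with a rise of 0.86 of the gene. The others were RSRC2-215 (3.60 ± 0.43), DDX17-207 of an RNA helicase (3.52 ± 0.27), RIOK3-209 of a protein kinase (3.50 ± 0.24), TMEM208-203 of a membrane protein of the endoplasmic reticulum (3.37 ± 0.42), HADHA-206 of a mitochondrial enzyme of fatty acid oxidation (3.35 ± 0.19) and CLINT1-203 of a clathrin adaptor (3.33 ± 0.22). The share of TMEM208-203 rose from 2.87 ± 0.585% to 38.0 ± 6.77%.

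The largest rises by the rule for named transcripts were of transcripts at or near 0 in DMSO. Such transcripts could reach the means of 0.5 and 1 TPM only through other groups. Their direction against DMSO was thus fixed by how they were chosen, and the values below are a description. SCFD1-211, of a protein of traffic between the endoplasmic reticulum and the Golgi, was at 0 TPM in all 3 DMSO libraries and at 3.50, 3.34 and 2.72 TPM with CHX, at least 61.2-fold higher against a floor of 3 reads per library. It was at 0.347, 0.352 and 0 TPM with ML-60218 and 3.57, 3.77 and 3.37 TPM with both agents, so that the groups with CHX lay above those without it. TARDBP-213, of the RNA-binding protein TDP-43, was at 0 TPM in DMSO and 3.50, 5.03 and 3.49 TPM with CHX (at least 18.8-fold), and at 0 TPM in all 30 HEK293T libraries. ASB1-203 was at 0 TPM in DMSO and took 34.7 ± 9.65% of its gene with CHX (at least 19.0-fold). AC005670.2-201 (at least 31.5-fold) and USP39-209 (at least 18.6-fold), the latter of a splicing factor, were also at 0 TPM in DMSO, and IQGAP1-218 rose by 6.05 ± 1.28 from at most 0.0433 TPM. The calls of PIGT-271, RNASEH2B-241, TRAPPC6B-206 and ALG3-204, at least 41.6, 23.8, 13.3 and 12.1-fold higher, were lost in 10, 11, 11 and 9 of 17 alternative settings, with adjusted p up to 0.102, 0.101, 0.0971 and 0.0839. These bounds cover counting error only.

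Falls with a matching fall in share were rarer. PTPN23-206, of a phosphatase-like protein of endosomal sorting, was at 5.28, 5.90 and 5.34 TPM in DMSO, 1.11, 1.96 and 1.45 TPM with CHX, 3.70, 4.91 and 3.68 TPM with ML-60218 and 2.13, 2.07 and 1.23 TPM with both. All CHX libraries were below all others, the level fell by 2.14 on the log2 scale (SE 0.25, adjusted p = 0.000135), and the share fell from 34.7 ± 2.37% to 8.43 ± 3.09%, while the gene's summed counts fell by 0.16 and its mean summed TPM was 15.9 in DMSO and 18.3 with CHX. ST3GAL3-280, of a sialyltransferase, was at 12.0, 9.27 and 8.13 TPM in DMSO and 2.41, 2.31 and 1.56 TPM with CHX. It fell by 2.48 and its share fell from 12.5 ± 2.66% to 2.62 ± 0.569%. MFSD1-215 was at 3.72, 1.42 and 7.88 TPM in DMSO and at 0 TPM with CHX (at least 75.6-fold lower), RASSF1-204 at 1.17, 0.961 and 4.18 TPM and then 0 (at least 27.5-fold) and MSH5-219 at 2.58, 3.33 and 4.5 TPM and then 0 (at least 18.6-fold). The call of MSH5-219 was lost in 9 of 17 settings, with adjusted p up to 0.0800. Transcripts at 0 TPM with CHX could likewise reach the means that chose and named them only through other groups.

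The most abundant transcripts with the biotype did not rise. HNRNPA1-205 was at 845, 784 and 745 TPM in DMSO and 604, 605 and 630 TPM with CHX. It fell by 0.60 on the log2 scale as its gene fell by 0.79, and it took 62.8 ± 2.99% and 66.0 ± 0.818% of the gene. COX6C-206, of a subunit of cytochrome oxidase, was at 523, 520 and 492 TPM in DMSO and 463, 448 and 456 TPM with CHX, and took 92.5% and 89.8% of its gene. ACTG1-214, of an actin, fell by 0.44 and RPS3-210 by 0.32.

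The response to CHX is given by transcript structure as counts and medians, without a test of the difference. Among all transcripts tested, of any biotype, 13.6% rose and 12.2% fell. Where the stop codon lay in an exon of its own, 381 of 1118 tested transcripts rose and 33 fell (median 0.81). Where a protein-coding transcript of the gene also used the stop codon, 143 of 490 rose and 23 fell (median 0.53). Of the 2858 in neither class 665 rose and 181 fell (median 0.44). These classes include the transcripts that passed the threshold only through other groups than DMSO. Of the 965 genes with 2 or more tested NMD-biotype transcripts, 452 had at least 1 that rose, 162 had 2 or more, and 25 had both a rise and a fall. Of all 2943 genes with a tested NMD-biotype transcript, 986 had at least 1 that rose. No matching count per gene was made over all transcripts, and the percentages of single transcripts above are no reference for these counts. They describe the genes only and do not show that transcripts of a gene moved together.

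In the presence of ML-60218, CHX gave nearly the same picture. Of 4473 tested transcripts 1193 rose and 267 fell (26.2% of all transcripts called), and the share of 187 rose and that of 17 fell (1.99% called). These libraries share none with the comparison above. Higher in both were 946 transcripts, which is 79.5% of the first list and 79.3% of the second, and lower in both were 182 (76.8% and 68.2%). None was called higher in one and lower in the other, and of the 1190 that rose without ML-60218, 1176 were above 0 with it. Across 4473 transcripts, which share libraries and are not independent, the log2 fold changes had a Pearson r of 0.63 and a Spearman rho of 0.80.

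**Figure D4:**
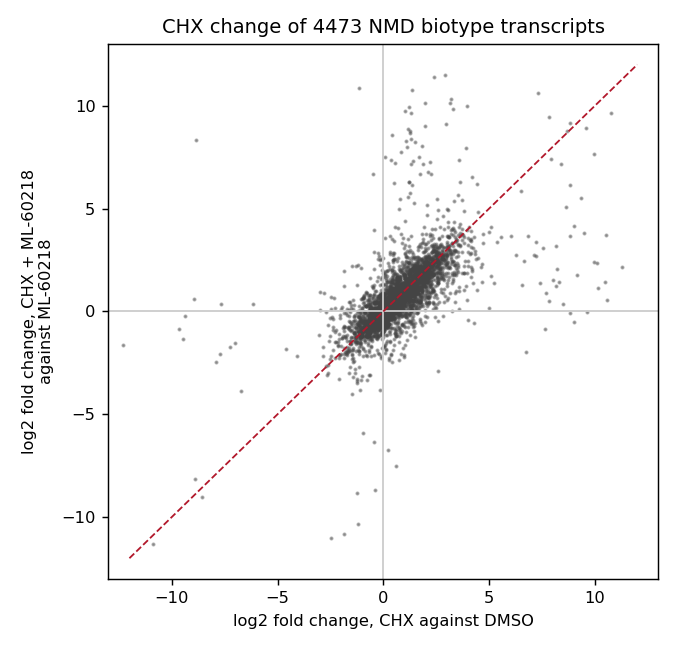
Log2 fold change of 4473 NMD-biotype transcripts with CHX in the absence (x axis) and presence (y axis) of ML-60218, both on a log2 scale, with the identity line. The 946 transcripts called higher in both lie in the upper right and the 182 called lower in both in the lower left.

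With ML-60218 the number of calls depended on the tool. Against DMSO, edgeR found that 8 rose and 13 fell (0.962% of all transcripts called, 0.689% higher and 0.273% lower; 344 NMD-biotype transcripts had an unadjusted p under 0.05), with a median of 0.02. DESeq2 called 63 higher and 59 lower, and edgeR with the replicate number as a block called 11. DOK2-202, of a signalling adaptor of blood cells, was at 26.7, 31.9 and 27.4 TPM in DMSO and 52.0, 47.2 and 48.0 TPM with ML-60218, and rose by 0.81 ± 0.09 (adjusted p = 0.00362). NFKBID-208, of an atypical inhibitor of NF-kB, was at 5.81, 5.04 and 5.92 TPM and 10.3, 12.9 and 10.6 TPM, and rose by 1.05 ± 0.13 (adjusted p = 0.00631). Both followed their genes, which rose by 0.77 and 0.85. The other rises were IDS-206 (1.02), PDGFC-201 (0.71), SH3BP5-204 (0.62), MYO1G-207 (0.44), MYO1G-203 (0.38) and OGFOD3-208, the last at 0 TPM in DMSO and at most 0.939 TPM with ML-60218.

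MYO18A-207, of an unconventional myosin, was at 30.5, 30.9 and 31.1 TPM in DMSO and 21.8, 21.0 and 21.6 TPM with ML-60218, and fell by 0.49 on the log2 scale with its gene (−0.49; adjusted p = 0.000741). TKTL1-205, of a transketolase-like protein, was at 123, 125 and 118 TPM and 83.1, 84.2 and 90.6 TPM, and fell by 0.45 with its gene (−0.47). CACNA2D3-204 fell by 0.61, with a change of −0.65 for the gene. NCKAP1L-204, of a subunit of an actin regulator in blood cells, fell by 0.38 and its gene by 0.10. NKTR-202 fell by 0.54 and ZNF562-204, at 0.939, 1.25 and 1.24 TPM and then 0.181, 0.180 and 0.130 TPM, by 2.68, and their genes were not called. Of 12 shares called higher and 13 called lower (0.404% of all transcripts called), 10 and 13 had a group at 0 TPM, and only 4 and 1 had no overlap between libraries.

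Under CHX, ML-60218 called 7 transcripts higher and 4 lower (0.813% of all called, 0.529% higher and 0.284% lower), and the share of 9 higher and 2 lower (0.39%). The rises were PAQR3-212 (0.63), DDX5-218 (0.47), XPO1-206 (1.10), HNRNPDL-202 (0.29 ± 0.05), RASSF1-204, RPL35A-202 (0.45) and NFKBID-208 (0.75), and the falls were FGD3-204, PARL-205, CACNA2D3-204 and MYO18A-207. NFKBID-208, CACNA2D3-204 and MYO18A-207 were called in the same direction without CHX. RASSF1-204, of a tumour suppressor, was at 0 TPM in the 3 CHX libraries and 0.968, 1.11 and 0.487 TPM with both agents (at least 9.61-fold), and its call was lost in 10 of 17 settings, with adjusted p up to 0.114. The effect of CHX differed with ML-60218, by the interaction test, for 2 transcripts (0.12% of all called, 0.039% higher and 0.0806% lower). They are NFKBIE-203, at 0 TPM with ML-60218 alone, and MYO1G-207, whose call (adjusted p = 0.0494) was lost in 16 of 17 settings. The count was 0 with the replicate block, 72 with DESeq2 and 0 to 6 when 1 library was left out.

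In HEK293T the same transcripts were called in both directions. With the POLR3G ASO, 347 of 3422 tested rose and 248 fell (22.9% of all transcripts called, 12.3% higher and 10.6% lower), with a median of 0.06, and the share of 81 rose and that of 23 fell (2.09% called, 1.47% higher and 0.624% lower). The median log2 change of the share was 0.15, against 0.06 for all transcripts. Their summed level was 17772 ± 253 TPM with the scrambled ASO and 20705 ± 407 TPM with the POLR3G ASO (SD, n = 3), without overlap, and the median share was 1.18 times as high. Mitochondrial transcripts took 25.5% to 27.9% and 21.3% to 22.5% of TPM in these groups, and their part in the ratio was not tested. The calls numbered 899 with DESeq2, 269 with the replicate number as a block, and 390, 392 and 373 without POLR3G ASO replicate 1, 2 and 3. With limma on TPM, which moved the median of all transcripts by 0.19, 630 rose and 143 fell.

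With the POLR3G siRNA, 380 of 3410 tested transcripts rose and 323 fell (29% of all called, 15.2% higher and 13.8% lower), with a median of −0.00. The share of 28 rose and that of 44 fell (2.45% called, 1.26% higher and 1.2% lower). The summed level was 1.04 times that of the controls, without overlap, and 1.01 times without the 10 most abundant transcripts, with overlap. The median share of the gene was 0.943 times that of the controls, without overlap. For levels, limma on TPM gave 346 higher and 511 lower, with the median of all transcripts moved by −0.12. The ASO and the siRNA target the same gene and share no library: 58 transcripts rose with both, which is 16.7% and 15.3% of the rises, 83 fell with both (33.5% and 25.7% of the falls), and 23 and 44 were called in opposite directions. Across 3167 transcripts tested in both, Pearson's r was 0.15 and Spearman's rho 0.16.

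With siE4, 138 of 3628 tested transcripts rose and 169 fell (12.1% of all called, 5.95% higher and 6.19% lower), with siE6 145 rose and 215 fell (15.5%, 6.75% and 8.73%), and with siE8 204 rose and 156 fell (13.8%, 7.56% and 6.24%). The 3 comparisons share their control libraries. Medians lay between −0.04 and 0.04. The summed level was 0.907 times that of the controls with siE4, 0.912 times with siE6 and 1.04 times with siE8, each without overlap between libraries. The median share of the gene was 0.969, 0.962 and 0.984 times that of the controls, with overlap in each. The share was called higher and lower for 11 and 16 transcripts with siE4 (1.06% of all called), 20 and 37 with siE6 (1.4%) and 15 and 28 with siE8 (1.23%). With limma on TPM, siE4 gave 87 higher and 390 lower and siE6 137 higher and 389 lower, with shifts of the median of all transcripts of −0.16 and −0.10. Mitochondrial transcripts took 8.64% to 15.4% of TPM in the control libraries and 16.3% to 17.9% with siE4, and the part of this was not tested.

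**Figure D5:**
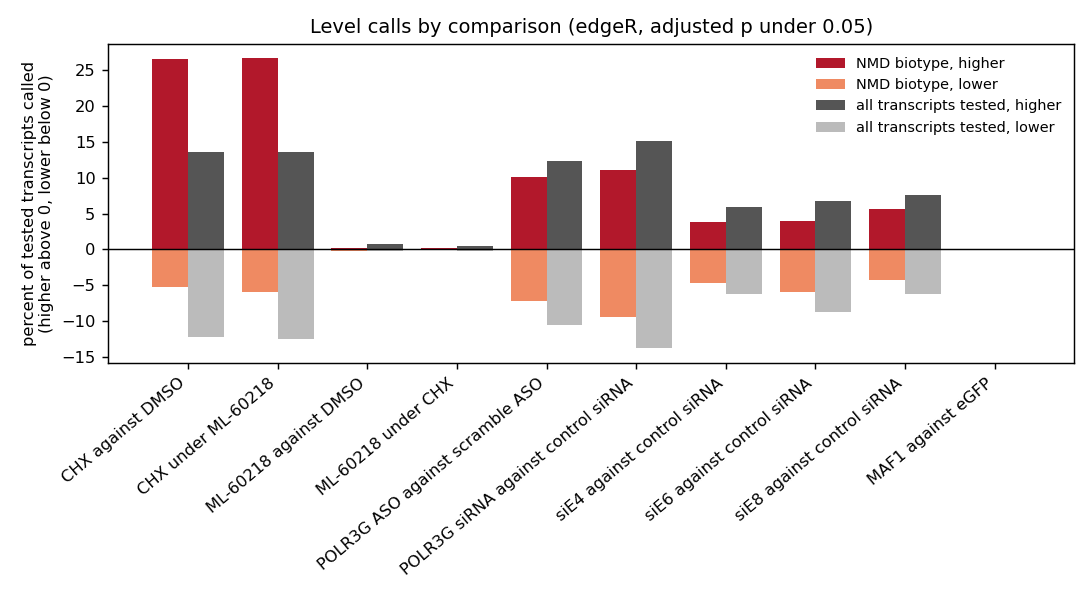
Percent of tested transcripts called higher and lower (y axis) in 10 comparisons, for NMD-biotype transcripts and for all transcripts. With CHX the NMD-biotype bars for higher calls reach 26.6% against 13.6% for all transcripts, and in the HEK293T comparisons the NMD-biotype bars are not above those of all transcripts.

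Several transcripts that rose most clearly with CHX in THP-1 also rose with the POLR3G ASO in HEK293T. SRSF3-203 was at 56.4, 48.9 and 51.6 TPM with the scrambled ASO and 155, 154 and 161 TPM with the POLR3G ASO, and rose by 1.37 ± 0.05 (adjusted p = 0.000236) with a rise in share of 1.26 on the log2 scale. EIF4A2-202 was at 40.7, 43.8 and 46.0 TPM and 135, 132 and 144 TPM, and rose by 1.46 ± 0.05 with a rise in share of 1.29. SRSF2-208 was at 5.72, 4.68 and 5.43 TPM and 18.0, 17.9 and 27.0 TPM, and rose by 1.75 ± 0.20 (adjusted p = 0.00308). In each case the groups were far apart. BTBD1-204 rose by 1.74 ± 0.15, MAGOHB-208 by 1.15 ± 0.13 and SRSF2-204 by 2.50 ± 0.45. DNAJC7-207 (0.68, adjusted p = 0.224), CLK1-204 (−0.10), HNRNPDL-202 (−0.13) and DDX17-207 (−0.00) were not called.

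The other HEK293T comparisons gave smaller or opposite values for several of these transcripts. With the POLR3G siRNA, EIF4A2-202 was at 38.7, 34.9 and 40.6 TPM in controls and 61.2, 58.2 and 59.9 TPM, and rose by 0.79 ± 0.07 with a rise in share of 1.13, while SRSF3-203 rose by 0.24 ± 0.03. SRSF2-208, BTBD1-204 and MAGOHB-208 were not called with that siRNA. SRSF3-203 rose by 0.54 ± 0.06 with siE4 and 0.38 ± 0.06 with siE6, SRSF2-208 fell by 1.44 with siE4, and HNRNPDL-202 fell by 1.26 with siE8.

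Grouped by their call with CHX, 966 of the transcripts that rose with CHX were tested with the POLR3G ASO, and 157 of them rose (16.3%) and 56 fell (5.80%), with a median of 0.23. Of the 2205 not called with CHX, 169 rose (7.66%) and 148 fell (6.71%), with a median of 0.04, and of the 218 that fell with CHX 18 rose and 44 fell, with a median of −0.14. The medians were in this order under limma on TPM too, at 0.42, 0.23 and 0.08, where the last was above 0. Of all transcripts tested with the ASO, 12.3% rose and 10.6% fell. Spearman's rho between the fold changes with CHX and with the ASO was 0.20 over 3389 transcripts. For the POLR3G siRNA the medians were −0.01, 0.01 and −0.05 and rho was 0.00, and for siE4, siE6 and siE8 rho lay between −0.02 and 0.06. With the siRNA, 12.4% of those that rose and 22.9% of those that fell with CHX were called higher, against 9.58% of the rest. Called lower with the siRNA were 10.4%, 18.8% and 8.27% of these groups. Of all transcripts tested with the siRNA, 15.2% rose and 13.8% fell. Those that fell with CHX thus had more calls in both directions, and the part of their read depth in this was not tested.

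The counts of the splicing list varied between knockdowns, which was not tested. With the POLR3G siRNA 28 of its 94 tested NMD-biotype transcripts rose and 6 fell (median 0.47), beside 15.2% higher and 13.8% lower among all transcripts. With the ASO 23 of 92 rose and 11 fell (median 0.10), beside 12.3% and 10.6%. Of 94 tested, 14 rose and 4 fell with siE6 (0.21, beside 6.75% and 8.73%), 9 and 5 with siE8 (0.11, beside 7.56% and 6.24%), and 9 and 7 with siE4 (0.17, beside 5.95% and 6.19%). The medians stayed above 0 under every scaling tried, down to 0.03 with siE4 by limma on TPM, where 9 rose and 11 fell. Of 35 tested ribosomal protein transcripts, 11 rose and 3 fell with the ASO (median 0.51), beside 12.3% higher and 10.6% lower among all transcripts, with medians of 0.42 to 0.73 in the other settings.

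The largest changes in HEK293T were often all-or-none. SOD2-214, of the mitochondrial superoxide dismutase, was at 39.1, 39.2 and 38.1 TPM with the scrambled ASO, where it took 42.4 ± 1.69% of its gene, and at 0 TPM in all 3 libraries of the POLR3G ASO. It was at least 1283-fold lower. The summed counts of the SOD2 gene rose by 0.96 on the log2 scale, while its summed TPM was 91.7 with the scrambled ASO and 96.7 with the POLR3G ASO. With the POLR3G siRNA it was at 66.0, 71.2 and 68.6 TPM in controls and 23.1, 23.3 and 23.5 TPM, and fell by 1.43, with siE6 it rose by 0.55, and with CHX in THP-1 it rose by 1.08. RBM39-216, of a splicing factor, was at 4.71, 5.08 and 6.08 TPM and then 0 TPM with the POLR3G ASO (at least 98.1-fold lower). COPA-213, of a coat protein of vesicles, was at 0 TPM and then 1.62, 2.59 and 2.56 TPM (at least 71.2-fold higher), and YIPF3-203 at 0 TPM and then 3.19, 4.47 and 3.74 TPM (at least 26.6-fold), with a call lost in 1 of 11 settings (adjusted p up to 0.0693). In the eGFP group, COPA-213 was at 2.28, 1.95 and 0 TPM.

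With the POLR3G siRNA, AP2A2-213, of a clathrin adaptor, was at 0 TPM in controls and 3.69, 1.82 and 1.98 TPM (at least 68.6-fold higher), and SKA3-201, of a kinetochore protein, at 0 TPM and 2.85, 1.89 and 1.89 TPM (at least 61.7-fold), as its gene rose by 0.93. CCNDBP1-215 was at 2.93, 4.23 and 5.84 TPM and then 0 TPM (at least 49.5-fold lower), as its gene fell by 1.17, and HGH1-205 at 1.33, 3.22 and 5.56 TPM and then 0 TPM (at least 43.8-fold). Some of these transcripts also alternated between 0 and several TPM within single groups. AP2A2-213 was at 3.46, 2.625 and 0 TPM with eGFP, and CCNDBP1-215 at 4.30, 0 and 0 TPM. HGH1-205 was at 2.36, 0 and 5.32 TPM in DMSO-treated THP-1, where SKA3-201 was above 0 in every library. The part of read assignment in these bounds was not tested. With siE4, TBL3-202, of a ribosome assembly factor, was at 5.79, 8.12 and 5.15 TPM and then 0 TPM (at least 16.9-fold lower), and DBNL-209 fell by 5.09. PHF14-202 was at 3.64, 5.34 and 5.35 TPM in controls and 0 TPM with siE6 (at least 138-fold lower), and LIG1-207, of a DNA ligase, was at 2.96, 1.66 and 2.06 TPM and 0 TPM with siE8 (at least 87.3-fold lower).

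TIMM50, of the mitochondrial import machinery, had transcripts called in opposite directions with siE6, and the same transcripts also alternated between replicates of single groups. TIMM50-216 was at 5.63, 9.19 and 8.63 TPM in controls and 0 TPM with siE6, and TIMM50-219 at 0 TPM in controls and 1.19, 5.70 and 2.92 TPM. Both end at the same stop codon in the same exon (chr19:39485688-39485807), shown here because the annotated reading frames cannot tell them apart at their ends.
TIMM50-216: ggagctcaccggcgtcctcttgcatccTGA
TIMM50-219: ggagctcaccggcgtcctcttgcatccTGA
In the 3 libraries of the control siRNA at 200 nM, TIMM50-216 was at 0, 4.4 and 5.74 TPM and TIMM50-219 at 4.36, 0 and 0 TPM, and with CHX in THP-1 they were at 0, 0 and 4.83 TPM and 5.56, 3.31 and 0 TPM. The call of TIMM50-219 was lost in 3 of 17 settings, with adjusted p up to 0.112.

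Graded changes in share were fewer. U2SURP-203, of a protein of the U2 small nuclear ribonucleoprotein, was at 14.8, 13.3 and 13.9 TPM in controls, 7.18, 6.70 and 5.39 TPM with siE8 and 5.38, 3.78 and 4.96 TPM with siE6. Its share fell from 14.7 ± 1.35% to 5.32 ± 0.659% with siE8 (level −1.07 ± 0.12, adjusted p for the share 5.8e-10), while the gene rose by 0.48. It fell by 1.43 with siE6, rose by 0.55 ± 0.12 with siE4 and rose by 1.28 ± 0.18 with the POLR3G siRNA, with the lowest library of each group that rose above the highest of its controls. STRAP-206, of a protein linked to splicing and translation, was at 6.62, 3.64 and 5.85 TPM in controls and 14.7, 17.4 and 12.3 TPM with siE6. It rose by 1.61 ± 0.25 and its share rose from 1.82 ± 0.604% to 5.49 ± 0.968%.

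MAF1 overexpression called 0 of 3436 tested NMD-biotype transcripts in edgeR (0.00283% of all transcripts called), with 170 at an unadjusted p under 0.05, while DESeq2 called 9 higher and 19 lower and limma on TPM 1 higher and 2 lower. The median was −0.04 and the summed levels overlapped, at 0.977 times the eGFP level. The share of 3 transcripts was called higher and that of 5 lower (0.177%): PIGG-211, GRHPR-209 and MANBA-214 were higher and INTS6-207, PSMG2-207, CBWD3-208, MRRF-211 and DDX5-207 lower. The 5 that were lower were at 0 TPM in all MAF1 libraries, and DDX5-207, of an RNA helicase, was the most abundant of them in eGFP, at 4.24, 10.2 and 8.91 TPM.

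Between the lines without CHX or ML-60218 the shares of NMD-biotype transcripts were correlated more closely than their levels. The median level was 1.16 TPM in DMSO-treated THP-1 and 1.14 TPM over the 12 HEK293T control libraries, and the median share was 4.29% and 3.78%. Across the 4633 transcripts, which were chosen on THP-1 levels, Spearman's rho between the lines was 0.63 for levels and 0.80 for shares. Of the 4633, 3355 reached a mean of 0.5 TPM over the HEK293T controls and 66 were at 0 TPM in all 30 HEK293T libraries.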

How the data were processed

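Estimated counts and TPM per Ensembl transcript were deposited by the authors for 42 libraries of polyadenylated RNA (Kapa Hyper Stranded mRNA kit, paired reads, NovaSeq X Plus, per the labels' protocols). The submitters' processing notes name bcl2fastq 2.20, Trim Galore, Salmon, DESeq2 and hg38; other tool versions and the authors' annotation: not given in the sources used here. Transcript identifiers, without version, were matched to GENCODE 29 (158359 of 194142, 81.6%); unmatched transcripts held 8.06% to 9.54% of reads.

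The deposited estimated counts were rounded and tested within each experiment with edgeR 4.0.16 (filterByExpr, TMM, quasi-likelihood test, Benjamini-Hochberg adjustment), the share of the gene with edgeR's diffSpliceDGE, and genes on counts summed over transcripts. Alternatives were DESeq2 1.42.0, its size factors, no filter, the replicate number as a block, limma 3.58.1 on log2(TPM + 0.1), and leaving out each library. The deposited TPM values gave levels, shares and sums. R 4.3.3, Python 3.11.15, pandas 2.3.3 and matplotlib 3.10.9 were used, and the procedure was tested on simulated data. No replicate pair correlated above 0.1 in its deviations from the group means, so replicate numbers were not taken to pair libraries.

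The members and lists were chosen with earlier results of these data known. Named transcripts were the 10 largest rises and 5 largest falls with CHX, 4 and 4 per ML-60218 comparison and 2 and 2 per HEK293T comparison, among those called for level and share in 1 direction with a mean of at least 1 TPM and no overlap; up to 3 per list by adjusted p with CHX; the 5 most abundant; and those called in the interaction test. The 10 largest CHX rises with every DMSO library at 0.5 TPM or more, members called with ML-60218 or in a share with MAF1, and SOD2-214 and U2SURP-203 across comparisons were described after their values were seen. Bounds against a group at 0 use 3 reads per library and cover counting error only. Some transcripts that these rules name are not reported here.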

Additional observations from a re-analysis of the deposited data

Results flagged for a closer look

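NFKBIE-203, of an inhibitor of NF-kB, had a CHX effect that differed with ML-60218: the interaction was 7.14 ± 0.68 on the log2 scale (edgeR adjusted p = 0.0168). It was at 2.36, 1.05 and 1.13 TPM in DMSO, 15.5, 17.6 and 18.8 TPM with CHX, 0 TPM in all 3 libraries with ML-60218, and 15.5, 15.1 and 17.6 TPM with both agents. The size of the estimate comes from the group at 0 and is no bound, and the call was lost in 2 of 17 alternative settings. In the interaction test the NFKBIE gene was not called (0.03 on the log2 scale, edgeR adjusted p = 0.843), nor was the share of NFKBIE-203 (diffSpliceDGE adjusted p = 0.437). Its share was 18.6%, 8.02% and 9.93% in DMSO and 11.4%, 13.9% and 14.7% with CHX. MYO1G-207, of an unconventional myosin of blood cells, had an interaction of −0.61 ± 0.09 (adjusted p = 0.0494). It was at 18.7, 20.8 and 21.0 TPM in DMSO, 15.1, 14.9 and 13.9 TPM with CHX, 26.0, 28.6 and 26.0 TPM with ML-60218, and 13.3, 11.6 and 13.8 TPM with both, and its call was lost in 16 of 17 settings.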

How the results depend on the processing

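The level calls with CHX stayed within 1.5 times the main count under every alternative run. With DESeq2 in place of edgeR, the level calls were 122 for ML-60218 (21 in the main test), 81 for ML-60218 under CHX (11), 72 for the interaction (2), 899 for the POLR3G ASO (595) and 28 for MAF1 (0). DESeq2's size factors gave 1 for the interaction, and no filter gave 6 for ML-60218 under CHX, 1 for the interaction and 201 for siE4 (307). Limma on TPM gave level calls of 17 for ML-60218 under CHX, 477 for siE4 and 3 for MAF1. Its share calls were 947 for CHX (227), 913 for CHX under ML-60218 (204), 2 for ML-60218 (25), 0 for ML-60218 under CHX (11), 1 for the interaction (22), 276 for the ASO (104), 305 for the POLR3G siRNA (72), 90 for siE4 (27), 163 for siE6 (57), 134 for siE8 (43) and 5 for MAF1 (8). ML-60218 called 0.469% of the transcripts, and 0.295% of the biotype chosen on HEK293T controls. The cause of these differences was not tested. Higher and lower calls with DESeq2 were 63 and 59 for ML-60218 (8 and 13 in the main test), and with limma 8 and 9 for ML-60218 under CHX (7 and 4).

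With the replicate number as a block, level calls were 1303 for CHX (1427), 1348 for CHX under ML-60218 (1460), 11 for ML-60218, 6 for ML-60218 under CHX (5 higher and 1 lower), 0 for the interaction, 269 for the ASO and 419 for the siRNA (703), and share calls 7 for ML-60218, 8 for the interaction and 28 for siE8.

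Leaving out 1 library gave level calls of 1145 to 1402 for CHX, 1188 to 1457 for CHX under ML-60218, 14 to 25 for ML-60218, 2 to 13 for ML-60218 under CHX, 0 to 6 for the interaction, 373 to 414 for the ASO, 493 to 539 for the siRNA, 206 to 289 for siE4, 237 to 351 for siE6, 227 to 337 for siE8 and 0 for MAF1. Share calls were 152 to 227, 142 to 208, 21 to 31, 10 to 16, 12 to 24, 69 to 94, 59 to 72, 18 to 28, 32 to 54, 27 to 41 and 9 to 13 in the same order. Counts moved most without siE6 replicate 2 (237 level, 32 share), siE8 replicate 2 (238) or 3 (227 level, 27 share), POLR3G ASO replicate 3 (69 share) and eGFP replicate 1 (13 share for MAF1). For ML-60218 under CHX they were 2 and 3 without CHX replicate 1 and 3, and 5 and 4 without replicate 2 and 3 of both agents. For the interaction they were 5, 4 and 4 without DMSO replicate 1, 2 and 3, 1, 4 and 0 without CHX replicate 1, 2 and 3, and 6 without ML-60218 replicate 2, with shares of 13 and 12 without CHX replicate 1 and 2. No called fold change of a named transcript changed sign under these settings. The balance of higher and lower calls turned for the POLR3G siRNA (380 and 323 to 346 and 511 with limma) and, as above, for ML-60218 with DESeq2 and ML-60218 under CHX with limma, and the POLR3G ASO median of transcripts that fell with CHX went from −0.14 to 0.08 with limma.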
